A study of Homo sapiens with 8 samples.

Results

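The genes described here are 36 interferon-stimulated genes, chosen by their symbols from a list written with earlier results of these data known, and 35 of them were among the 14870 rows of the gene table. The missing symbol was IFI27, which was not listed. Messenger RNA was sequenced from LX-2, an established human hepatic stellate cell line, the liver cell that lays down scar matrix when activated. All 8 samples were kept for 72 h with recombinant human TGF-β1, the cytokine that activates stellate cells, 4 of them with the solvent DMSO and 4 with 5 µM ML290, a synthetic compound that switches on RXFP1, the receptor of the hormone relaxin. Every group had TGF-β1 and none was given an interferon, so the comparison asks what ML290 changed on top of TGF-β1 and says nothing of what TGF-β1 itself did to these genes.

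Interferons are secreted alarm signals of viral infection. Type I interferons bind a receptor made of IFNAR1 and IFNAR2, and their signal reaches the nucleus in the complex ISGF3, which holds STAT2 and IRF9. ISGF3 binds the interferon-stimulated response element (ISRE) of its target promoters, while interferon gamma acts on a different element. The products of the target genes sense foreign RNA, stop its translation, degrade it or tag proteins with the ubiquitin-like protein ISG15, and many of these genes are also transcribed at a low level without infection.

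Values are the authors' group means of normalised read counts over 4 samples, on a scale that is not per gene length, so levels are compared between treatments and not between genes. Values of separate samples were not used here, so a mean carries no SD, and the only test is that of the authors' deposited table, whose adjusted p below 0.05 is the threshold for calling a gene higher or lower. The submitters call the samples biological replicates without saying what was separate, so the p-values measure the spread between these samples. Low values of the table lie near steps of 1 read worth 0.0523 with ML290 and 0.0476 with DMSO in the sum over a group's libraries. Taking such a step as 1 read, each listed gene rests on at least 103 reads summed over the 4 libraries of a group. In this bulk RNA, fewer cells expressing a gene and less RNA per cell cannot be told apart.

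All 10 stellate cell and myofibroblast markers looked for were listed, and 7 were called lower with ML290 and 2 higher in the authors' table (median log2 ratio -1.11, against 0.02 over all rows), with a summed level of 11814 with ML290 and 17708 with DMSO. The collagen gene COL3A1 was 248.0 with ML290 and 961.4 with DMSO, 3.88-fold lower, and the smooth muscle actin gene ACTA2 was 6.27 against 18.7, 2.98-fold lower, whereas VIM was 1.18-fold and LOX 1.31-fold higher and TIMP1 was not called. Of 5 hepatocyte markers only SERPINA1 was listed, with an authors' mean of 1.39 with ML290 and 1.63 with DMSO. Of 5 leukocyte markers, PTPRC and CD3E were not listed, LYZ had authors' means of 0.284 and 0.286, CD14 of 3.59 and 5.38, and CD68, a lysosomal protein that is not confined to leukocytes, of 71.7 and 35.1 with ML290 and DMSO. The summed level of the 3 listed leukocyte markers was thus 75.6 against 40.8. Of 4 endothelial markers CDH5 was not listed and the other 3 were not called, with summed levels of 1.25 and 1.96. Of 4 epithelial markers only KRT7 was listed, at 1.91 with ML290 and 3.43 with DMSO, and it was called lower (adjusted p = 0.000707 per the authors' deposited table). The part of these marker changes in the results below was not tested.

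With ML290 the interferon-stimulated genes did not move as a block. By the test of the authors' deposited table, 12 of the 35 listed genes were higher, 13 were lower and 10 did not pass the threshold. That is 71.4% called, against 35.1% of all rows in either direction (19.5% higher and 15.6% lower) and 39.4% of the 12782 rows whose mean level is 1 or more (22.0% up, 17.4% down), which all 35 genes reach. The higher genes were IFIT2, IFIT3, OASL, ISG15, HERC5, TRIM25, IFI44, IFIH1, DDX58, STAT2, IRF7 and ISG20. The lower genes were IFIT1, OAS1, OAS2, OAS3, UBE2L6, IFI6, BST2, PARP9, PARP14, DTX3L, XAF1, SAMD9L and TRIM21. The increases reached further than the decreases, with a median fold of 1.61 for the former and 1.44 for the latter. Log2 ratios of ML290 over DMSO ran from -0.75 for OAS1 to 1.85 for OASL. Their median was -0.14 and their mean 0.04, which differ in sign, beside a median of 0.02 over all rows. At a fold of at least 1.5 as well, 7 genes stayed higher and 5 lower, where 10.8% of all rows passed (6.01% higher and 4.77% lower).

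**Figure D1:**
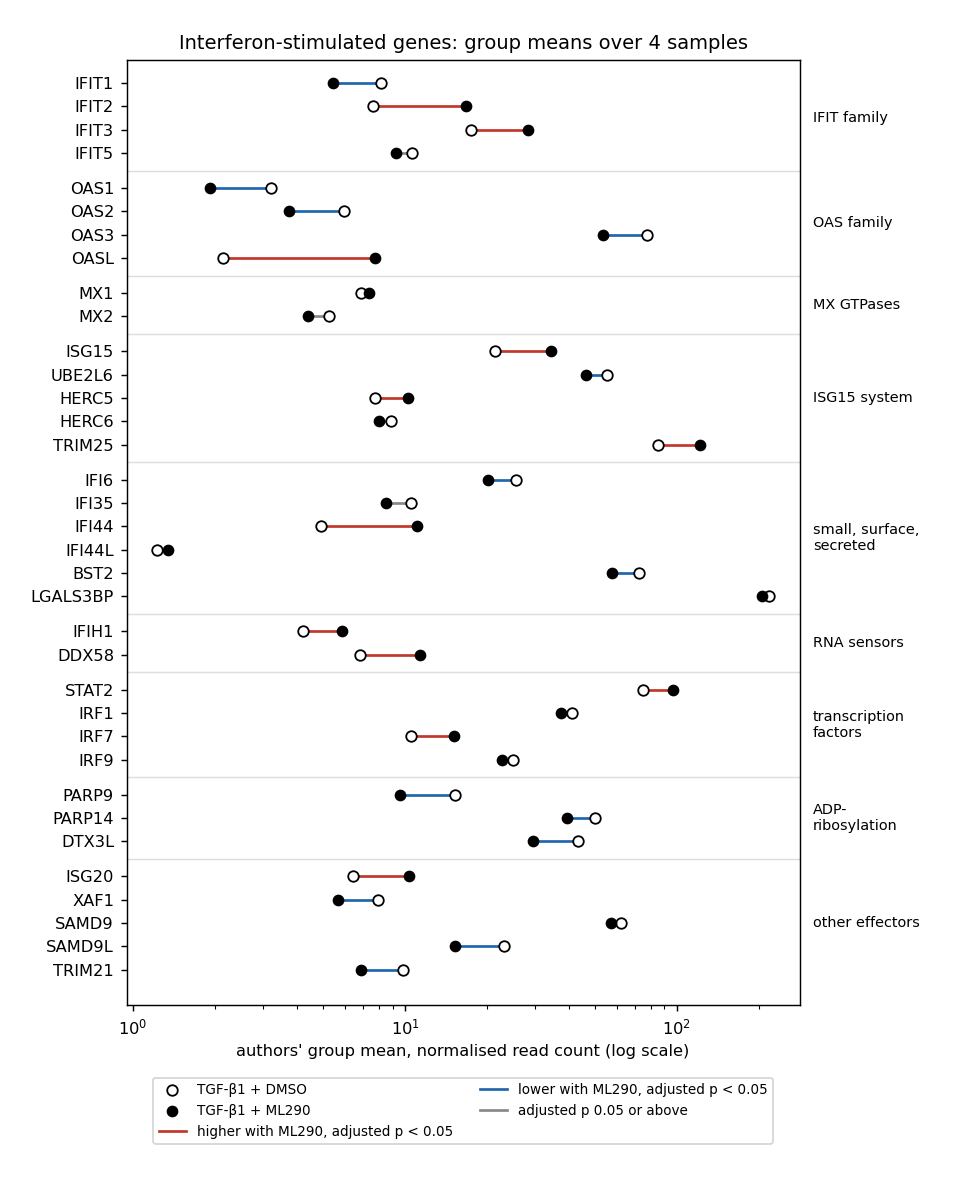
Authors' group means (normalised read count, log axis) of the 35 listed interferon-stimulated genes by role, open circles for TGF-β1 with DMSO and filled circles for TGF-β1 with ML290, each a mean over 4 samples. The joining line is red for the 12 genes called higher, blue for the 13 called lower and grey for the other 10. Red and blue lines occur together within the IFIT, OAS, ISG15, small-protein and other-effector groups.

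**Figure D2:**
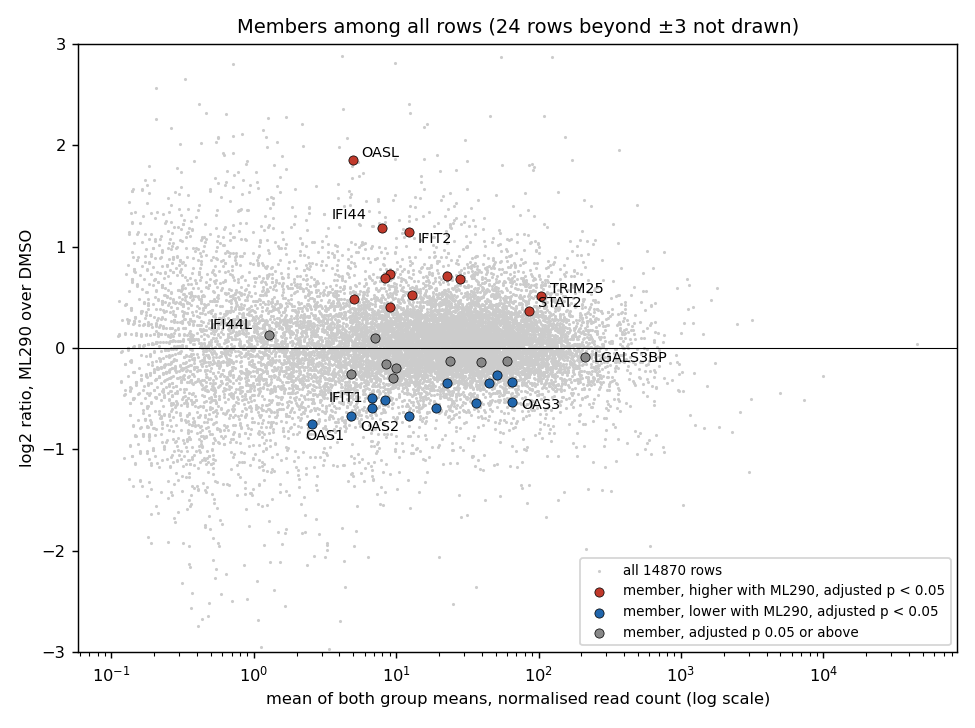
Log2 ratio of ML290 over DMSO against the mean of both group means (log axis) for all 14870 rows in grey, with the listed interferon-stimulated genes on top in red (higher), blue (lower) or dark grey (not called). OASL at 1.85, IFI44 at 1.18 and IFIT2 at 1.14 stand highest among them, and 24 rows beyond 3 in either direction are not drawn.

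Letters of the response element's core were matched in promoter windows of higher and of lower genes. Binding to these windows was not measured. RefSeq promoter windows on GRCh38.p14, from 250 bases before to 50 after an annotated start, were found for 30 of the 35 listed genes, DDX58 under its newer symbol RIGI. Windows for IFIT2, OAS2, OASL, MX2 and IRF7 were not used here. The core of the ISRE was searched as GAAA, any 2 bases and again GAAA, on either strand, and a gene was counted when any of its windows held a match. It was found in 19 of the 30 genes (63.3%), against 4.04% of the 10912 genes of the table that have a window and 4.38% of all 27305 genes with one. By direction, it was in 6 of 9 higher genes, in 8 of 12 lower genes and in 5 of 9 genes that were not called. No match was found in DDX58, STAT2, TRIM25, OAS1, XAF1, SAMD9L, UBE2L6, IFI35, IRF1, IRF9 and HERC6, which says only that these letters are not in those windows.

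The windows below show where the matches lie in some of the genes that have one, picked from both directions. Every match fits the searched letters, so the likeness of the matches is set by the search. Each runs 5′ to 3′ along the gene's strand over the 160 bases before the annotated start (for DTX3L, to 4 bases past it), and capitals mark the matches. The first 3 genes were higher with ML290 and the last 4 lower, in the order ISG15 (chr1:1013337-1013496, plus strand), IFIT3 at its downstream start (chr10:89332369-89332528, plus), ISG20 (chr15:88638856-88639015, plus), IFIT1 (chr10:89392463-89392622, plus), OAS3 (chr12:112938314-112938473, plus), BST2 (chr19:17405631-17405790, minus) and DTX3L (chr3:122564178-122564341, plus).
ISG15: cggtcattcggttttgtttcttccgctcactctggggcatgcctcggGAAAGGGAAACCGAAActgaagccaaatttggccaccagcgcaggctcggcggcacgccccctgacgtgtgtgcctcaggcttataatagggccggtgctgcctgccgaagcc
IFIT3: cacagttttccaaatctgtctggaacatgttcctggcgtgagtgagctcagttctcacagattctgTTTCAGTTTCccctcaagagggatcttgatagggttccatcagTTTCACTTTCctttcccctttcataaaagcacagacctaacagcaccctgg
ISG20: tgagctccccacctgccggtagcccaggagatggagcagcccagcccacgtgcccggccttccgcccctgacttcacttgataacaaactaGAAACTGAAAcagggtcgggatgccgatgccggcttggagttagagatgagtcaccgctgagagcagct
IFIT1: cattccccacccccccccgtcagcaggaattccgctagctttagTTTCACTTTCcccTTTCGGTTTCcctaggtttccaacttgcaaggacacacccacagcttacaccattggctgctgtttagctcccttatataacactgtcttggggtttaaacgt
OAS3: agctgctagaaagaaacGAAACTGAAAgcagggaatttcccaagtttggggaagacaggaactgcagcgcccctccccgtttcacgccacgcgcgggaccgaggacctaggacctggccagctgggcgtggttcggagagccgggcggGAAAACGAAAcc
BST2: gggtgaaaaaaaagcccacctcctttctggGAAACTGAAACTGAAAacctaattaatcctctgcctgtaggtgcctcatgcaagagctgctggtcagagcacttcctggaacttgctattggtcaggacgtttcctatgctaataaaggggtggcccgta
DTX3L: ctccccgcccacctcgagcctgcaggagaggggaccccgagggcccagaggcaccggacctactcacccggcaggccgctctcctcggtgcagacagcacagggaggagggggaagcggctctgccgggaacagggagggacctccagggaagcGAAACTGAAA

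ISG15 and BST2 each carry a pair of matches that overlap, from -113 to -98 in ISG15 and from -130 to -115 in BST2, counted from the start site. IFIT3 and IFIT1 both have matches on the opposite strand, at -94 and -51 in IFIT3 and at -116 and -103 in IFIT1. DTX3L and PARP9 are read away from each other from starts 38 bases apart, at 122564338 and 122564300 of chromosome 3. The match at 122564332 to 122564341 lies in the windows of both these starts. The other annotated PARP9 start, at 122564784, lies inside DTX3L, and no match was found in its window.

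**Figure D3:**
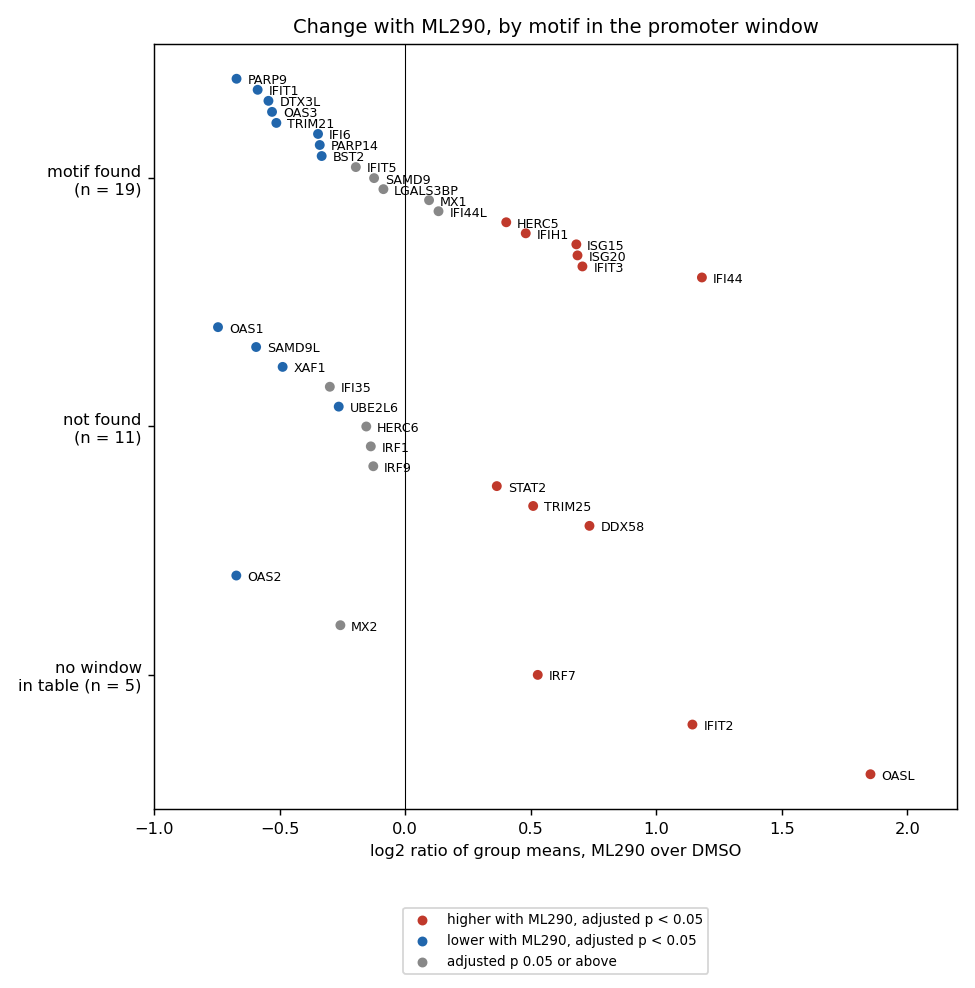
Log2 ratio of ML290 over DMSO for the 35 listed genes, in rows for genes with the ISRE core in a promoter window (19), without it (11) and with no window used (5), coloured red for higher, blue for lower and grey for not called. Both red and blue points occur in the row with the motif and in the row without it.

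The IFIT proteins bind foreign RNA and hold back its translation, and their genes lie side by side on chromosome 10. IFIT2 had an authors' mean of 16.8 with ML290 and 7.62 with DMSO, 2.21-fold higher (adjusted p = 7.27e-07 per the authors' deposited table). IFIT3, whose protein binds and stabilises IFIT1, was 28.4 against 17.4, 1.63-fold higher (adjusted p = 9.88e-05 per the authors' deposited table). IFIT1, which recognises RNA caps that lack 2′-O methylation, went the other way, at 5.44 against 8.18, a log2 ratio of -0.59 (adjusted p = 0.00116 per the authors' deposited table). IFIT5 was 9.30 against 10.7 (adjusted p = 0.212 per the authors' deposited table). On GRCh38 with GENCODE 29, IFIT2 starts at 89283694, IFIT3 at 89327894, IFIT1 at 89392546 and IFIT5 at 89414586, all on the plus strand, so the order along the chromosome is higher, higher, lower and not called. The IFIT genes are paralogs, and how reads shared between them were counted is not given in the sources used here. IFIT2 also shares 65 of its 4101 exon bases with LIPA on the opposite strand, and LIPA was 38.4 against 52.1, 1.36-fold lower (adjusted p = 0.000218 per the authors' deposited table).

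The OAS enzymes make 2′-5′ oligoadenylates when they bind double-stranded RNA, a signal that leads to RNA breakdown. All 3 catalytically active genes were lower. OAS1 was 1.92 with ML290 and 3.22 with DMSO, 1.68-fold lower (adjusted p = 0.0202), on about 147 and 270 reads per group, by the authors' deposited table. OAS2 was 3.74 against 5.96, 1.59-fold lower (adjusted p = 0.000704), and OAS3 was 53.5 against 77.3, 1.44-fold lower (adjusted p = 1.53e-05), both by the authors' deposited table. These 3 genes follow each other on chromosome 12 in the order OAS1, OAS3, OAS2, from 112906777 to 113011723. OASL, a relative without the enzyme activity whose ubiquitin-like tail helps activate the sensor RIG-I, lies apart from them, from 121019111 to 121039242 on the minus strand. It had the largest increase of the listed genes, from 2.14 with DMSO to 7.74 with ML290, 3.61-fold (adjusted p = 6.15e-06 per the authors' deposited table), on about 180 and 593 reads. Its ratio ranked 65th from the top among the 14870 rows.

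The MX genes encode dynamin-like GTPases that block incoming viral particles, and neither passed the threshold. MX1 was 7.38 with ML290 and 6.91 with DMSO (adjusted p = 0.579), and MX2 was 4.39 against 5.25 (adjusted p = 0.0812, unadjusted p = 0.0326), by the authors' deposited table. A p above the threshold does not show that their levels were alike.

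ISG15 is a ubiquitin-like protein, and its own transcript and those of 2 of its ligases were higher while that of its conjugating enzyme was lower. ISG15 was 34.4 with ML290 and 21.4 with DMSO, 1.60-fold higher (adjusted p = 0.000726 per the authors' deposited table). HERC5, the main human ligase that attaches ISG15 to newly made proteins, was 10.3 against 7.78, 1.32-fold higher (adjusted p = 0.00825), and TRIM25, which can also act as an ISG15 ligase and ubiquitinates RIG-I, was 121.7 against 85.5, 1.42-fold higher (adjusted p = 1.35e-05), by the authors' deposited table. UBE2L6, the conjugating enzyme that passes ISG15 to the ligases, was 46.2 against 55.5, 1.20-fold lower (adjusted p = 0.00556 per the authors' deposited table). HERC6, the neighbour of HERC5 on chromosome 4 with its end 14006 bases from the start of HERC5, was 8.01 against 8.91 (adjusted p = 0.31 per the authors' deposited table). TRIM25 shares 80 of 9501 exon bases with DGKE on the opposite strand, and DGKE was 16.5 against 9.92, 1.66-fold higher (adjusted p = 0.000106 per the authors' deposited table).

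**Figure D4:**
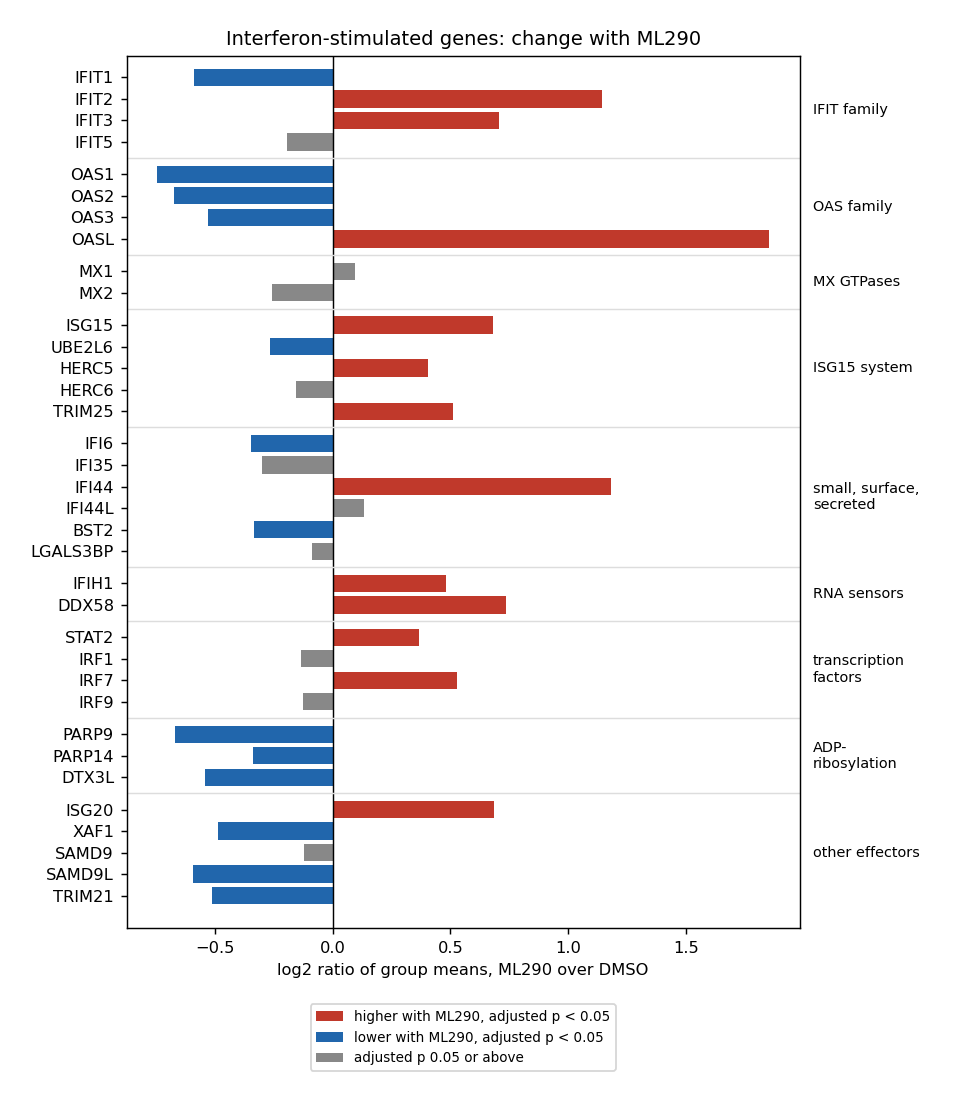
Log2 ratio of the group means, ML290 over DMSO, for each of the 35 listed genes by role, with red bars for genes called higher, blue for lower and grey for those that did not pass. Both RNA sensors point up and all 3 ADP-ribosylation genes point down, while the OAS group holds 3 decreases and the 1.85 of OASL.

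Both cytoplasmic RNA sensors were higher. DDX58, which encodes RIG-I and detects RNA with a 5′ triphosphate, was 11.4 with ML290 and 6.85 with DMSO, 1.66-fold higher (adjusted p = 0.00301 per the authors' deposited table). IFIH1, which encodes MDA5 and detects long double-stranded RNA, was 5.88 against 4.22, 1.39-fold higher (adjusted p = 0.00623 per the authors' deposited table).

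Of the 4 transcription factors, 2 were higher and none lower. STAT2, the subunit of ISGF3 that carries its transactivation domain, was 97.0 with ML290 and 75.3 with DMSO, 1.29-fold higher (adjusted p = 0.000141 per the authors' deposited table). IRF7, the amplifier of type I interferon transcription, was 15.2 against 10.5, 1.44-fold higher (adjusted p = 0.00416 per the authors' deposited table). The DNA-binding subunit IRF9 was 22.8 against 24.9 (adjusted p = 0.331) and IRF1, which is induced by both interferon gamma and inflammatory cytokines, was 37.5 against 41.2 (adjusted p = 0.205), by the authors' deposited table. IRF1 shares 1716 of 7799 exon bases with C5orf56 on the opposite strand, and IRF9 shares 1838 of 3794 with the read-through gene AL136295.5 on its own strand. C5orf56 had means of 1.14 and 1.33 by the authors' deposited table, and AL136295.5 was not listed.

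All 3 genes of ADP-ribosylation were lower. PARP9 and DTX3L form a complex in which DTX3L is a ubiquitin ligase, and PARP14 transfers ADP-ribose to proteins. PARP9 was 9.55 with ML290 and 15.2 with DMSO, 1.59-fold lower (adjusted p = 0.000134), and DTX3L was 29.7 against 43.3, 1.46-fold lower (adjusted p = 9.65e-05), by the authors' deposited table. PARP14, further along chromosome 3 at 122680618 to 122730840, was 39.4 against 49.9, 1.27-fold lower (adjusted p = 0.00127 per the authors' deposited table). The exons of PARP9 and DTX3L overlap over 217 bases on opposite strands, and whether strand was used in counting is not given in the sources used here.

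Small interferon-inducible proteins and proteins of the cell surface split as well, with 1 higher and 2 lower of 6 listed. IFI44, a cytoplasmic protein that slows proliferation when overexpressed, was 11.1 with ML290 and 4.90 with DMSO, 2.27-fold higher (adjusted p = 8.93e-06 per the authors' deposited table). Its neighbour IFI44L, 3651 bases upstream on chromosome 1, was 1.35 against 1.23 (adjusted p = 0.693 per the authors' deposited table). At about 103 reads a group, counting alone gives the log2 ratio of IFI44L a standard error of 0.20, so a change as small as those of BST2 and IFI6 would not be detectable there at this depth. BST2, the tetherin that holds budding virus on the cell, was 57.8 against 72.8, 1.26-fold lower (adjusted p = 0.00162), and IFI6, a small antiviral membrane protein, was 20.1 against 25.6, 1.27-fold lower (adjusted p = 0.00528), by the authors' deposited table. IFI35 lay just outside the threshold at 8.55 against 10.5 (adjusted p = 0.0542), and the secreted glycoprotein LGALS3BP was 205.3 against 218.0 (adjusted p = 0.413), by the authors' deposited table.

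Among the remaining effectors 1 was higher and 3 were lower. ISG20, an exonuclease that degrades RNA, was 10.4 with ML290 and 6.45 with DMSO, 1.61-fold higher (adjusted p = 0.000895 per the authors' deposited table). SAMD9L, which restrains protein synthesis and growth, was 15.3 against 23.1, 1.51-fold lower (adjusted p = 0.000619), while its neighbour and paralog SAMD9 on chromosome 7 was 57.2 against 62.3 (adjusted p = 0.384), by the authors' deposited table. The cytosolic antibody receptor TRIM21 was 6.87 against 9.80, 1.43-fold lower (adjusted p = 0.00054 per the authors' deposited table). XAF1, a pro-apoptotic antagonist of XIAP, was 5.68 against 7.96, 1.40-fold lower (adjusted p = 0.00502 per the authors' deposited table), and 2535 of its 6615 exon bases are shared with PRAL on the opposite strand, which was not listed. Pairs were taken of listed genes next in order along a chromosome and less than 100 kb apart. Of these 10 pairs, IFIT3 and IFIT1 were the pair called in opposite directions. Another 4 pairs were called in the same direction, and in the other 5 at least 1 gene was not called.

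Other genes of the interferon pathway were read from 6 further lists. Their called shares stand against 35.1% of all rows (19.5% higher, 15.6% lower) and 39.4% of rows at a mean level of 1 or more. Of 10 interferon ligand genes, IFNB1 included, only IFNE was listed, at 1.12 with ML290 and 0.962 with DMSO (adjusted p = 0.445, unadjusted p = 0.306, per the authors' deposited table). Of 11 receptors and JAK-STAT components 3 were higher and 2 lower, 45.5% called, a share near that of all rows (median log2 ratio 0.04). IFNGR2, a chain of the interferon gamma receptor, was 30.3 against 22.8, 1.33-fold higher (adjusted p = 0.000378), and IFNAR1 was 90.0 against 74.7, 1.20-fold higher (adjusted p = 0.0118), by the authors' deposited table. STAT3, which carries cytokine signals of the IL-6 family, was 91.9 against 115.3, 1.25-fold lower (adjusted p = 0.0026 per the authors' deposited table).

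Of 14 listed sensors, adaptors and kinases 6 were higher and 1 lower, 50% called against 35.1% of all rows, with a median log2 ratio of 0.21. TICAM1, the TRIF adaptor of the receptors TLR3 and TLR4, was 30.4 with ML290 and 18.7 with DMSO, 1.63-fold higher (adjusted p = 7.83e-05), and TRAF3 was 54.5 against 42.2, 1.29-fold higher (adjusted p = 0.00121), by the authors' deposited table. MYD88, an adaptor of most Toll-like receptors, was the lower gene, at 27.5 against 38.7 (1.41-fold, adjusted p = 6.62e-05 per the authors' deposited table). Of 10 negative regulators 2 were higher and 2 lower, 40% called, a share near that of all rows (median log2 ratio -0.02). SOCS3, a feedback inhibitor of JAK kinases, was 19.4 against 29.8, 1.54-fold lower (adjusted p = 0.00502), TRIM27 was 58.3 against 44.1, 1.32-fold higher (adjusted p = 0.000588), and the phosphatase PTPN11 was 197.5 against 169.8, 1.16-fold higher (adjusted p = 0.00752), by the authors' deposited table. SOCS1, a JAK inhibitor of the same family, named after its values were seen, was 2.96 against 5.10, 1.72-fold lower (adjusted p = 0.00934 per the authors' deposited table).

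Of 39 further interferon-stimulated genes outside the 36, 34 were listed, and 18 of them were lower and 5 higher, with a median log2 ratio of -0.26. That is 67.6% called, against 35.1% of all rows (15.6% lower and 19.5% higher). The guanylate-binding protein GBP1, an interferon gamma target that attacks intracellular pathogens, was 14.7 with ML290 and 40.4 with DMSO, 2.74-fold lower (adjusted p = 1.65e-08 per the authors' deposited table). GBP2 was 9.40 against 18.6, 1.98-fold lower (adjusted p = 5.11e-06 per the authors' deposited table), and GBP3 and GBP4, named after their values were seen, were 1.53-fold and 1.66-fold lower by the authors' deposited table. The tryptophan tRNA synthetase WARS was 88.9 against 63.1, 1.41-fold higher (adjusted p = 8.05e-06 per the authors' deposited table). The list's other higher genes, named after their values were seen, were DDX60 (1.72-fold), SAT1 (1.55-fold), SLFN5 (1.54-fold) and ZC3HAV1 (1.13-fold), by the authors' deposited table. Of 15 genes of MHC class I presentation 1 was higher and 5 lower (median log2 ratio -0.22), and the 40% called is near the 39.4% of rows at a mean level of 1 or more. The immunoproteasome subunit PSMB9 was 15.5 against 22.9, 1.48-fold lower (adjusted p = 0.00012), NLRC5, the transactivator of class I genes, was 27.8 against 37.8, 1.36-fold lower (adjusted p = 0.000246), and the peptide-trimming enzyme ERAP2 was 29.8 against 39.3, 1.32-fold lower (adjusted p = 0.000708), by the authors' deposited table. The class I light chain B2M was 487.7 against 537.1 (adjusted p = 0.303) by the authors' deposited table.

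**Figure D5:**
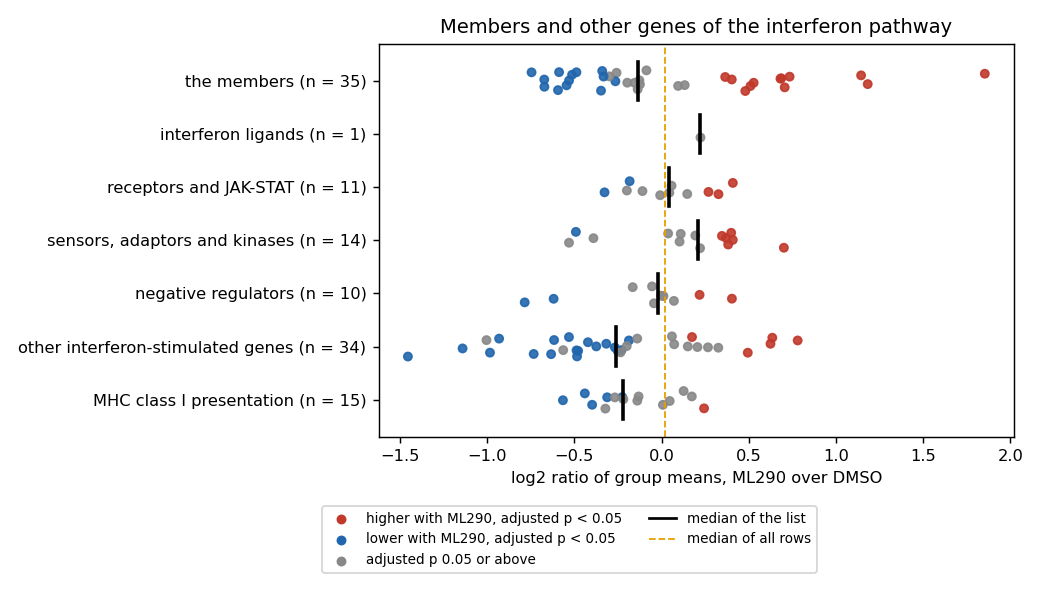
Log2 ratio of ML290 over DMSO for the 35 listed interferon-stimulated genes and for 6 other lists of the interferon pathway, 1 point per listed gene, coloured red for higher, blue for lower and grey for not called. Black ticks are list medians, from -0.26 for other interferon-stimulated genes to 0.22 for the lone listed ligand, and the dashed line is the median of all rows, 0.02.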

How the data were processed

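RNA of 8 LX-2 samples, 4 per group, was lysed in Trizol and column-purified, per the labels' protocols. Per the submitters' processing notes, the tools were STAR and Partek and the build GRCh38. Which counter, annotation, strand setting, filter, normalization and model were used is not given in the sources used here. A table of 14870 rows was used. It holds, per the file headers, least-squares group means that the authors deposited as a signal of normalised counts, a ratio of ML290 over vehicle, a signed fold used here as a score only, and a p-value with its step-up adjustment. The adjusted p the authors deposited matches a Benjamini-Hochberg adjustment made over 14872 tests, and 2 of these have no row here.

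From the group means were computed log2 ratios, folds (larger over smaller), list counts and medians. Values are the authors' means, and no test could be rebuilt from them. Read steps were found as the strongest period of the summed low values (means under 1). Of these, 68.9% (ML290) and 83.4% (DMSO) lay within 0.15 of a whole read. Read numbers assume that a step is 1 read, would mean 19131900 (ML290) and 21010100 (DMSO) reads per library if values were scaled to 1000000, and give counting error only. Coordinates and exon overlaps came from GENCODE 29, promoters from RefSeq. The step search and the adjustment were tested on simulated data. Members and lists were chosen with earlier results of these data known. Named genes are every listed member and the 3 genes of each other list with the smallest adjusted p. GBP3, GBP4, DDX60, SAT1, SLFN5, ZC3HAV1, B2M, SOCS1 and the genes with overlapping exons were added after their values were seen. Alternatives were stricter thresholds, level filters, a pseudocount of 1, centring and, added after the data were seen, an unadjusted p. The software was Python 3.11.15 with matplotlib 3.10.9, pandas 2.3.3 and numpy 2.4.6.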

Additional observations from a re-analysis of the deposited data

How the results depend on the processing

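The counts of 12 higher and 13 lower genes were 12 and 12 at an adjusted p under 0.01 (OAS1 was lost), 12 and 14 over rows with a mean level of at least 1 (IFI35 was gained) and 12 and 15 at an unadjusted p under 0.05, where IFI35 and MX2 were gained. They fell to 7 and 5 with a fold of at least 1.5 and to 6 and 8 with a mean level of at least 10, where fewer genes are tested. With Bonferroni adjustment 4 higher genes (IFIT2, OASL, TRIM25 and IFI44) and 1 lower gene (OAS3) passed. The median log2 ratio of -0.14 became -0.16 after centring and -0.13 with a pseudocount of 1, while the mean in place of the median, 0.042, has the opposite sign because OASL, IFI44 and IFIT2 reach further up than any gene reaches down. No listed gene changed sign under centring or the pseudocount. At an adjusted p under 0.01 the other lists held 1 higher and 1 lower gene among receptors and JAK-STAT, 3 higher among sensors, 11 lower among other interferon-stimulated genes and 0 higher in MHC class I presentation. No paired analysis was possible because the table holds group means only, and for the same reason no replicate could be left out. Genes with few reads, IFI44L and OAS1 above all, are limited by depth.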
